A study of Zea mays with 14 samples.

Results

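Messenger RNA loaded on the polysomes of germinated maize (Zea mays) embryonic axes was compared with the mRNA stored in quiescent axes. The comparison used 5 of the 11 biological samples of the series. The 3 polysomal samples came from axes dissected after 22 h of imbibition in the dark and held for a further 2 h in nutrient-complete Murashige and Skoog medium without insulin. The 2 samples of stored mRNA were total RNA of quiescent axes, at time 0 and not treated. The first of these was hybridised to 2 technical arrays, which were averaged, so 6 of the 14 arrays were used. Other groups stand beside the results where they help to place them. These are 3 polysomal samples from axes given bovine insulin at 200 µU/mL during the 2 h in medium, and 2 samples of total RNA from axes excised after 24 h of germination, named M4 and RB by the submitters. The statistical fit also held 1 sample of total RNA from axes given insulin at 200 µU/mL, averaged over 2 technical arrays. Time in medium is not given for the 24 h axes. The titles call the samples of a group biological replicates but do not say that they came from separate seed lots. The p-values therefore measure the spread between these samples, whose source is not given.

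A dry seed holds mRNA made while the embryo matured on the mother plant. Among these stored mRNAs are those for storage proteins, for late embryogenesis abundant (LEA) proteins and dehydrins, which protect cells during drying, and for parts of the translation apparatus. Imbibition restarts translation, and newly made mRNAs join the pool as the axis begins to elongate. Polysomes are mRNAs carrying several ribosomes, and their mRNA is taken as the set under translation.

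The polysomal fraction was concentrated through a sucrose cushion from 2 g of axes, while total RNA came from 1 g. Both were converted to biotinylated cRNA and hybridised to Affymetrix maize arrays. Values are log2 intensities as deposited, so a difference of 1 is a 2-fold change. They are relative to the other mRNA on the same array: a polysomal level is a share of polysomal mRNA, not an amount per axis. Stage and RNA fraction changed together between the groups and cannot be told apart in this comparison. In whole axes, fewer cells of a type and less RNA per cell cannot be told apart either.

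After control features had been left out, 17555 probe sets were tested in 1 limma fit over all groups, with calls made where the p adjusted by Benjamini and Hochberg's method was under 0.05. The polysomal samples correlated with each other at r = 0.985 to 0.990 across probe sets. With the 24 h total RNA they correlated at 0.953 to 0.985, and with the quiescent samples at 0.798 to 0.822. The quiescent samples correlated with each other at 0.989. Between 80.7% and 83.2% of the probe sets were above background in each of the 5 samples. As background, each sample had the level that 95% of its 23 negative controls did not exceed, 4.39 to 4.81 in these samples. The 3′ minus 5′ signal of the EF1a control, a measure of RNA integrity, was 1.32, 2.55 and 0.88 in polysomal samples 1, 2 and 3, against 1.15 and 1.35 in the quiescent samples. Polysomal sample 2 therefore had the steepest gradient of the 5, and its ubiquitin control gave 1.33 where the other 4 samples gave 0.57 to 0.59. The part of this gradient in the results was not tested. Each polysomal sample correlated best with 1 insulin-treated polysomal sample (1 with 2, 2 with 1 and 3 with 3, at 0.997, 0.996 and 0.994), above its correlation with the polysomal samples of its own group.

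Most probe sets differed between polysomal and stored mRNA. Of the 17555, 4409 (25.1%) were higher on polysomes, 5728 (32.6%) were lower, and 7418 were not called. Differences of at least 4-fold were called for 1668 probe sets that were higher and 1286 that were lower. At 16-fold or more the split was 405 higher and 177 lower, and at 64-fold or more it was 59 higher and 3 lower. Rises thus reached larger sizes than falls, with extremes of 8.68 and -6.64. The median difference over all probe sets was -0.18, with quartiles at -0.77 and 0.65. When each array was centred on its median, the median difference became -0.40 and rises made up 32.7% of calls instead of 43.5%, so the balance of rises and falls depends on the scaling.

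**Figure D1:**
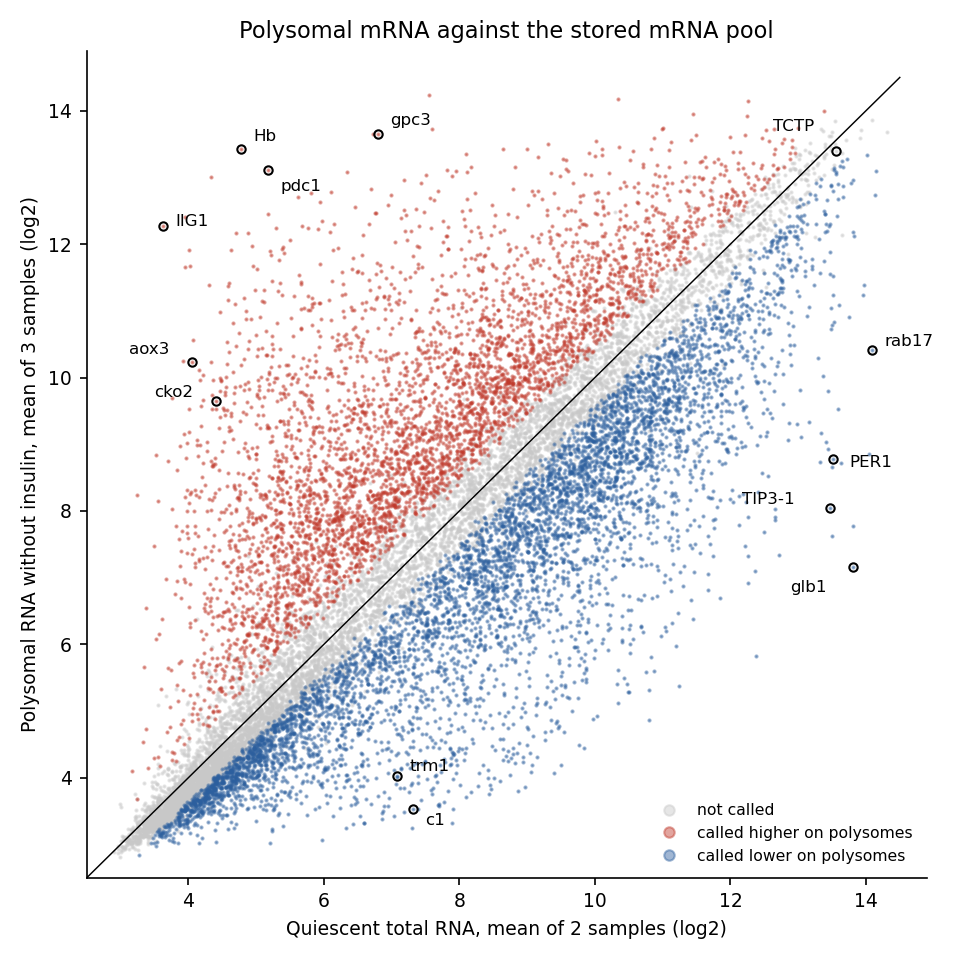
Mean log2 level of each tested probe set in the 3 polysomal samples without insulin (vertical axis) and in the 2 quiescent samples of total RNA (horizontal axis), with the line of equal levels. Red points were called higher on polysomes (4409), blue points lower (5728) and grey points were not called (7418). Hb and IIG1 lie farthest above the line among the named genes, and glb1 farthest below it.

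Gene names come from a platform annotation that covers 1452 of the tested probe sets with 1 gene each, so 16102 probe sets have no name here. Among those with 1 gene, 470 were called higher and 339 lower (32.4% and 23.3%), so results given by gene name draw on a part of the array with a larger share of rises than the whole.

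Most probe sets detected in the stored pool were also detected on polysomes. A probe set was counted as retained where it was above background in all 3 polysomal and both quiescent samples, and 13332 (75.9% of all tested) were. Another 2178 (12.4% of all tested) were above background in none of the 5 samples. Of the retained probe sets, 3975 were called higher, 4477 lower and 4880 not called. For 4090 retained probe sets the 95% interval of the difference lay within 2-fold in either direction, which leaves larger changes outside it. Most mRNA species of the stored pool were thus detectable on polysomes, in other proportions. An array cannot tell stored molecules from newly made mRNA of the same gene, so retained describes a probe set and not the molecules.

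Loss to below background was less frequent. A probe set was counted as lost where it was above background in both quiescent samples, below it in all 3 polysomal samples, and called lower, and 313 met this rule. Their median level was 4.02 on polysomes and 5.53 in quiescent axes. Since a level under background is only a bound, the fall was at least 2-fold for 167 of them, at least 4-fold for 86 and at least 16-fold for 9.

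In the reverse class, 221 probe sets were above background in all 3 polysomal samples, below it in both quiescent samples, and called higher. Their median level was 6.98 on polysomes and 4.22 in quiescent axes. The rise was at least 2-fold for 165, at least 4-fold for 121 and at least 16-fold for 50, up to at least 319-fold. The order of the 2 counts depends on the background: with the highest negative control of each sample as background 371 were gained and 340 lost, and with background 1 log2 unit higher 785 were gained and 449 lost. A further 86 probe sets had the same pattern of detection but were not called. At the edge of the rules, 427 probe sets were above background in both quiescent samples and in 1 or 2 of the polysomal samples, and 334 in all polysomal samples and 1 quiescent sample.

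The classes were then read in the other samples. The insulin-treated polysomal samples are not an independent reading, since each correlated with 1 of the defining samples at 0.994 to 0.997. In them, 220 of the 221 gained probe sets were above background in all 3, and 231 of the 313 lost ones in none. In the 24 h total RNA, 203 of the 221 gained probe sets were above background in both samples, so nearly all polysomal newcomers were also present in the total mRNA of germinated axes. Of the 313 lost probe sets, 137 were above background in neither 24 h sample, 28 in both and 148 in 1 of them. In 143 of those 148 the sample was RB. Over all tested probe sets, 777 were above background in 1 of the 24 h samples, and in 691 of these it was RB. RB also had the lower background, 4.29 against 4.61 in M4. The part of this background in the counts was not tested. The 28 had a median of only 4.93 in 24 h total RNA.

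**Figure D2:**
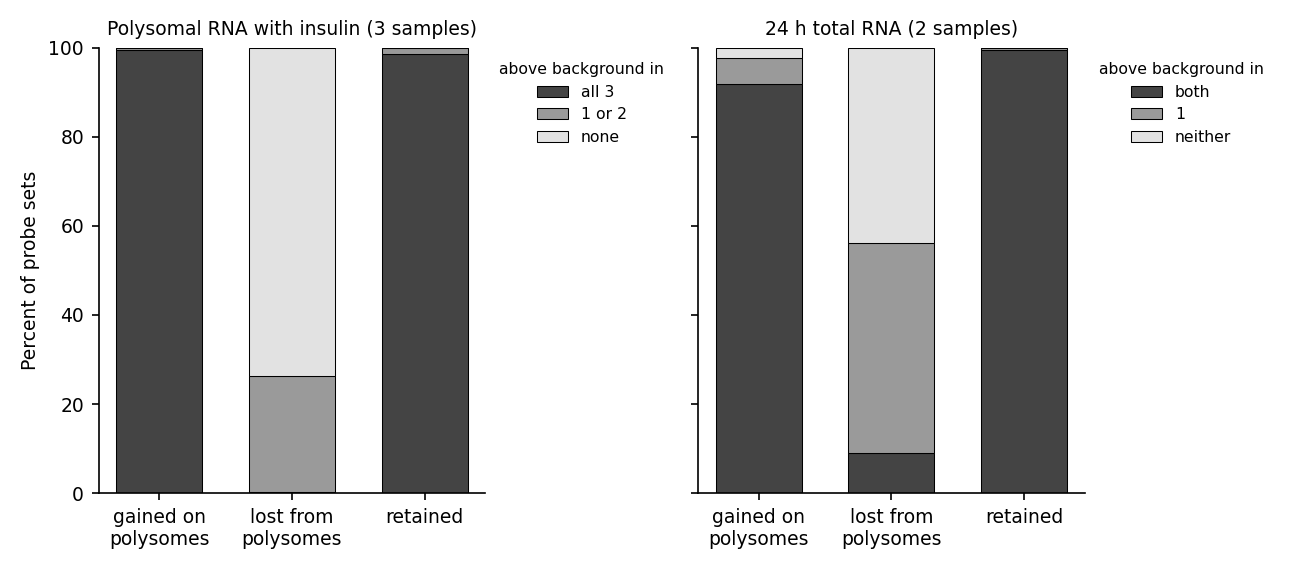
Share of probe sets (percent) above background in the samples named above each panel, for probe sets gained on polysomes (221), lost from polysomes (313) and retained (13332). The left panel shows the 3 polysomal samples with insulin and the right panel the 2 samples of 24 h total RNA. Dark bars are nearly full for gained and retained probe sets, while lost ones are mainly undetected or detected in 1 of the 24 h samples.

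The mRNAs that fell most included well-known products of the mature embryo. Storage globulins, LEA proteins, seed aquaporins of the vacuole and an antioxidant protein supplied many of the 15 largest falls among named genes, of -3.24 to -6.64. Genes were named here only where polysomal and quiescent samples did not overlap.

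glb1, a storage globulin of the maize embryo, showed the largest fall. Its level was 8.93, 6.02 and 6.55 on polysomes, against 13.82 and 13.80 in quiescent axes. The fall was 6.64 ± 1.02 (SE, adjusted p = 0.000402). The quiescent samples differed little, while polysomal sample 1 stood well above the other two. glb2, a further globulin, had 8.82, 7.40 and 7.49 on polysomes and 12.64 and 12.68 in quiescent axes, a fall of 4.76 ± 0.53 (adjusted p = 6.02e-05). Of the 4 globulin genes measured, only these were called lower (50%, against 32.6% of all probe sets). glb3 was dim in all 5 samples, and leg1 was at background throughout. With median centring all 4 were called lower.

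Of the 5 LEA and dehydrin genes, 4 fell and 1 rose (80% lower, against 32.6% of all probe sets), and the median difference was -2.72 against -0.18 for all probe sets. The smallest fall, that of a4Lea, was not called without polysomal sample 2 or 3 or either quiescent sample. rab17, a dehydrin induced by abscisic acid, had 11.09, 10.06 and 10.10 on polysomes, against 14.09 and 14.09 in quiescent axes (difference -3.67 ± 0.68, adjusted p = 0.00123). EMB5, an LEA protein, had 10.60, 9.33 and 9.47 on polysomes and 13.42 and 13.47 in quiescent axes, and mlg3, another LEA gene, fell by 2.72. Although lower, these mRNAs stayed bright on polysomes: rab17 had rank 4 among stored probe sets and rank 2481 among polysomal ones. The dehydrin gene dhn2 went the other way, with 12.61, 12.49 and 12.53 on polysomes and 9.09 and 9.81 in quiescent axes, a rise of 3.09 ± 0.24 (adjusted p = 6.53e-06) shared by all 3 of its probe sets. The oleosin gene ole16, which encodes a coat protein of oil bodies, averaged 11.38 ± 0.74 on polysomes (SD, n = 3) and 13.97 ± 0.05 in quiescent axes (SD, n = 2), a fall of 2.59 (adjusted p = 0.00304).

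TIP3-1 and TIP3-2, tonoplast aquaporins of seed storage vacuoles, fell by 5.42 and 3.74. TIP3-1 had 8.27, 8.10 and 7.77 on polysomes and 13.58 and 13.36 in quiescent axes. PER1, a 1-Cys peroxiredoxin of seeds, averaged 8.78 ± 1.07 on polysomes (SD, n = 3) and 13.52 ± 0.07 in quiescent axes (SD, n = 2), a difference of -4.74 ± 0.74 (SE, adjusted p = 0.000468). The metallothionein-like gene mtl2 varied widely among polysomal samples, at 10.10, 8.69 and 7.76, against 14.06 and 14.03 in quiescent axes. Here too polysomal sample 1 was the highest of the polysomal samples.

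Metabolic genes made up most of the other large falls. asn1, an asparagine synthetase, fell by 4.15, HMT-4, a homocysteine methyltransferase, by 3.74, and lkrsdh1, which starts lysine breakdown, by 3.53. sus2, a sucrose synthase, had 7.79, 8.11 and 7.96 on polysomes and 10.87 and 11.52 in quiescent axes. The transcription factor gene si1, of the MADS-box family, fell by 3.26 to levels just above background, and AGP2 fell by 3.54.

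The named falls were uneven between polysomal samples. Sample 1 was the highest of the 3 polysomal samples for 11 of the 15 genes. Over all 5728 probe sets called lower, sample 1 was highest in 43.2%, against 34.3% of all tested probe sets and 25.5% of those called higher. Each of the 15 falls was still called with any 1 sample left out.

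Few named genes were lost outright. Only 9 of the 313 lost probe sets carry a gene name, and all 9 are given here. c1, a MYB regulator of anthocyanin synthesis in the kernel, was the brightest in quiescent axes. It had 3.47, 3.30 and 3.85 on polysomes, all below background, against 7.04 and 7.58 in quiescent axes, so it was at least 7.30-fold lower (adjusted p = 9.78e-05). A second probe set of c1 was not called. trm1, a thioredoxin m, was at least 6.26-fold lower, with 4.15, 3.98 and 3.97 on polysomes against 7.05 and 7.12. sh2, the large subunit of ADP-glucose pyrophosphorylase in starch synthesis, was at least 4.36-fold lower, at 4.22, 4.09 and 4.20 on polysomes and 6.55 and 6.57 in quiescent axes. A second sh2 probe set was not called. The other 6 were dim in quiescent axes too, between 4.73 and 5.64, with bounds of 1.23-fold to 2.29-fold: m20, sig2B (a plastid sigma factor), EBE-2, EBE-1, meg2 and a probe set of TCTP whose gene has much brighter probe sets that were retained.

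The mRNAs that rose most included those of fermentation, sugar transport, cell walls and defence. The 15 largest rises among named genes ran from 5.78 to 8.66, and their means lay between 10.23 and 13.65 on polysomes but between 3.63 and 7.18 in quiescent axes.

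Hb, a plant haemoglobin, led them. It had 13.47, 13.24 and 13.57 on polysomes, against 4.81 and 4.73 in quiescent axes, a rise of 8.66 ± 0.45 (adjusted p = 9.69e-07). Its rank was 49 among polysomal probe sets and 14271 among stored ones. IIG1 had 11.78, 12.49 and 12.54 on polysomes and 3.60 and 3.65 in quiescent axes, so it was at least 190-fold higher, and 5 of its 6 probe sets rose while 1 fell. MST1, a monosaccharide transporter, had 12.43, 11.69 and 12.38 on polysomes against 4.89 and 4.88.

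The genes of alcohol fermentation rose together, all 5 of 5 being called, against 25.1% of all probe sets. Their median was 2.15, and 4 of 5 were called without quiescent sample 1. pdc1, a pyruvate decarboxylase, had 13.27, 12.91 and 13.16 on polysomes and 4.83 and 5.53 in quiescent axes, a rise of 7.93 ± 0.22 (adjusted p = 8.76e-08). adh2, an alcohol dehydrogenase, rose by 5.56 ± 0.71. adh1 was already bright in the stored pool, with 12.76 and 12.82, and reached 13.58, 13.52 and 13.63 on polysomes. For pdc2, probe sets disagreed: of its 4, 1 rose, 1 fell and 2 were not called. This list and those for endoplasmic reticulum folding, actin-binding proteins and abscisic acid regulators were compiled after gene names and values had been seen.

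Of 8 glycolytic genes, 4 rose (50% of the list, against 25.1% of all probe sets) and none fell, except that 1 was called lower with median centring. Isoforms of glyceraldehyde-3-phosphate dehydrogenase parted. gpc3 had 13.74, 13.57 and 13.65 on polysomes against 6.57 and 7.03 in quiescent axes, a rise of 6.86 ± 0.18, and gpc4 rose by 4.44 ± 0.14. gpc2 was as bright in both groups, with 13.36, 13.50 and 13.52 on polysomes and 13.46 and 13.33 in quiescent axes. The 95% interval of its difference ran from -0.27 to 0.40. eno1, an enolase, rose by 2.14 while eno2 gave 0.02. All 8 glycolytic genes were above background in both groups.

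Other large rises came from several pathways. glu1, a beta-glucosidase that releases defence compounds, rose by 7.27, lox1, a lipoxygenase, by 7.27, chn1, a chitinase, by 6.33, and 4CL, a ligase of phenylpropanoid synthesis, by 6.02. aox3, a mitochondrial alternative oxidase, was below background in quiescent axes (4.03 and 4.08) and had 10.37, 10.70 and 9.63 on polysomes, at least 46.4-fold higher. For 4CL the quiescent samples themselves lay apart, at 6.17 and 4.07. The remaining genes in this group were nar, grp3 and gar2. Of the 2 probe sets of nar, 1 rose and 1 fell.

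**Figure D3:**
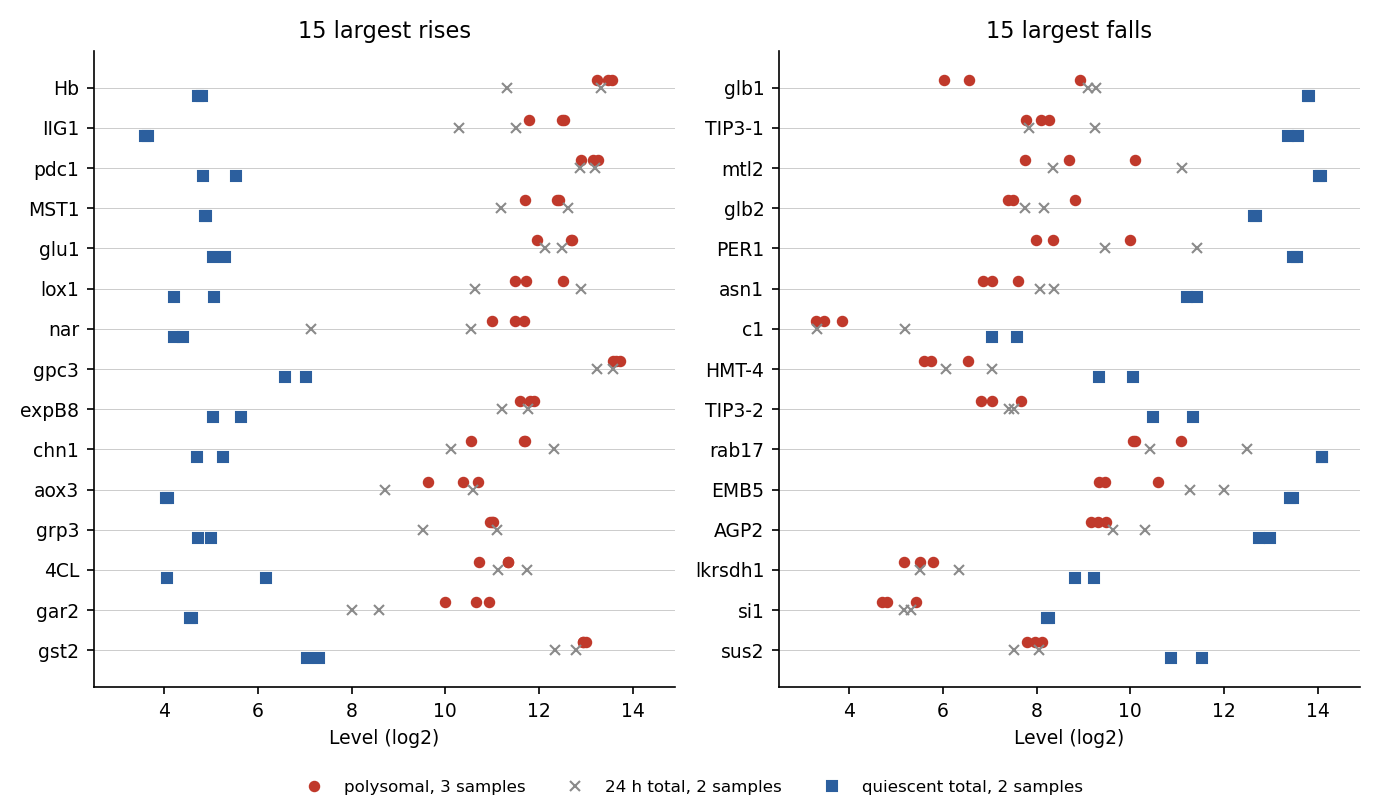
Log2 levels of the 15 named genes with the largest rises (left) and the largest falls (right), 1 mark per sample. Circles are the 3 polysomal samples without insulin, crosses the 2 samples of 24 h total RNA, and squares the 2 quiescent samples; circles and squares do not overlap for any of the 30 genes, which was a condition for naming them, and crosses show that 24 h sample RB lay below M4 for all 15 rises and above it for 13 of the 15 falls.

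Among the 221 gained probe sets, 22 belong to named genes, and the 10 brightest include genes of hormone turnover and defence. Beside IIG1, nar and aox3, bx1, the first committed enzyme of benzoxazinoid synthesis, had 8.41, 11.13 and 10.37 on polysomes, against 4.44 and 4.29 in quiescent axes (at least 38.7-fold). pr5, a thaumatin-like protein, had 9.87, 9.61 and 9.50 on polysomes against 4.38 and 4.06 (at least 31.2-fold). cko2 and cko3, cytokinin oxidases that break down cytokinins, were both among them. cko2 had 9.81, 9.12 and 10.01 on polysomes and 4.29 and 4.54 in quiescent axes, at least 31.0-fold higher. cko3 had 8.42, 7.62 and 8.44 on polysomes and 3.70 and 3.39 in quiescent axes.

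The remaining gained genes were less bright. MPAO, a polyamine oxidase, was at least 17.1-fold higher, and ocl3, a homeodomain regulator of the outer cell layer, at least 9.85-fold. tps6, a terpene synthase, spread widely at 7.37, 9.75 and 6.07 on polysomes against 4.14 and 4.45, and just passed the test (adjusted p = 0.035).

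Tubulins form the microtubules of dividing and elongating cells. All 12 tubulin genes were called higher, with a median of 1.82, against 25.1% of all probe sets, and 11 were without quiescent sample 1. tua5 had 11.56, 11.64 and 11.71 on polysomes, against 6.29 and 6.55 in quiescent axes, a rise of 5.21 ± 0.14 (adjusted p = 8.76e-08). tub4 rose by 5.09, tua6 by 2.96 and tub5 by 2.71. The smallest rise of the group was 0.71. For 2 of the 12 genes the probe sets did not share 1 call. Tubulin sequences are alike, and probe sets that hybridise to several members cannot be assigned to 1 gene.

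Of 25 genes for expansins and cell wall synthesis, 17 rose, 1 fell and 7 were not called (68% higher and 4% lower, against 25.1% and 32.6% of all probe sets), with a median of 1.69. The count of rises was 18 with quantile normalization, 14 with median centring and 13 without quiescent sample 2. Expansins loosen the wall during elongation, and expB8 had 11.89, 11.59 and 11.81 on polysomes against 5.64 and 5.03 in quiescent axes (difference 6.43 ± 0.23, adjusted p = 2.38e-07). xet1, a xyloglucan endotransglycosylase, rose by 5.45, cesa2, a cellulose synthase, by 4.37 and expa1 by 3.75. The single fall was that of cesa3, by 0.82. For 3 of the 25 genes the probe sets did not share 1 call.

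Aquaporins divided. Of 28, 12 rose, 5 fell and 11 were not called (42.9% higher and 17.9% lower, against 25.1% and 32.6% of all probe sets). Without polysomal sample 1, 13 rose and 3 fell, and without quiescent sample 1, 9 rose and 3 fell. Against the fall of the TIP3 genes, TIP2-1, another tonoplast aquaporin, had 11.51, 12.26 and 12.06 on polysomes and 6.01 and 6.42 in quiescent axes, a rise of 5.73 ± 0.33 (adjusted p = 1.49e-06). PIP2-6, of the plasma membrane type, rose by 5.34 ± 0.32.

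Genes of DNA replication were among those that rose. Of 18 cell cycle and replication genes, 8 rose, 2 fell and 8 were not called (44.4% higher and 11.1% lower, against 25.1% and 32.6% of all probe sets). pcna2, a sliding clamp of DNA replication, had 10.88, 10.81 and 10.93 on polysomes, against 5.73 and 6.20 in quiescent axes (difference 4.91 ± 0.18, adjusted p = 2.38e-07). pcna1 rose by 3.95, MCM7, a replicative helicase subunit, by 3.32 and MCM6 by 2.55. The falls were those of cycD2, a D-type cyclin, and RBR2, a retinoblastoma-related gene. Of 5 histone genes, 3 rose (60%, against 25.1% of all probe sets), with his2b5 at 4.83 and his1 at 4.02, and 2 were not called. For his1, 3 probe sets rose, 1 fell and 2 were not called.

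Of 31 glutathione transferases, enzymes that conjugate glutathione to reactive compounds, 20 rose, 3 fell and 8 were not called (64.5% higher and 9.68% lower, against 25.1% and 32.6% of all probe sets), with a median of 1.30. gst2 had 12.95, 13.00 and 12.94 on polysomes, against 7.31 and 7.05 in quiescent axes, a rise of 5.78 ± 0.16 (adjusted p = 8.76e-08). gst7 rose by 3.37 and gst24 by 2.88, while gst19 fell by 3.08. Of 9 other antioxidant genes, 2 rose and 3 fell (22.2% and 33.3%), near the 25.1% and 32.6% of all probe sets. After PER1, cat1, a catalase, fell by 1.18 and sod3, a superoxide dismutase, by 0.91, while CAT3 rose by 1.07 and sod2 by 1.04. The call of CAT3 was lost with median centring, without polysomal sample 2 or 3, and without either quiescent sample, and the dimmer of both sod2 probe sets fell.

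Of 16 genes of protein folding in the endoplasmic reticulum, 8 rose (50% of the list, against 25.1% of all probe sets) and none fell. Without polysomal sample 1 or quiescent sample 1, 6 rose. For 4 of the 16 genes the probe sets did not share 1 call. bip2, a luminal chaperone, had 11.41, 10.81 and 10.63 on polysomes and 8.40 and 8.27 in quiescent axes (difference 2.61 ± 0.49, adjusted p = 0.00145). The derlin gene DER2.1 rose by 1.97. Of 8 actin-binding proteins, the profilin genes PRO4 and prf5 rose, by 1.85 and 0.79, and the others were not called, a share of 25% higher that is near the 25.1% of all probe sets. With median centring 2 of this list were called lower.

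Most heat shock genes varied widely between polysomal samples. Of 8, 2 fell (25% of the list, against 32.6% of all probe sets), none rose, and 6 were not called, with a median of 0.71 over the list. hsp70-5, an Hsp70 chaperone, had 11.74, 11.72 and 11.77 on polysomes, against 13.30 and 13.46 in quiescent axes, a fall of 1.64 ± 0.20 (adjusted p = 8.81e-05), and hsp70-4 fell by 1.00. The small heat shock gene hsp18c, named after its values were seen, had 12.60, 13.15 and 10.76 on polysomes and 11.03 and 11.16 in quiescent axes (adjusted p = 0.405). Polysomal sample 3 lay lowest for all 6 genes that were not called, and 24 h sample RB lay below M4 for each of these 6. With the replicate number as a block and the 24 h samples left out, 6 of the list were called higher. The part of these samples in the result was not tested.

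**Figure D4:**
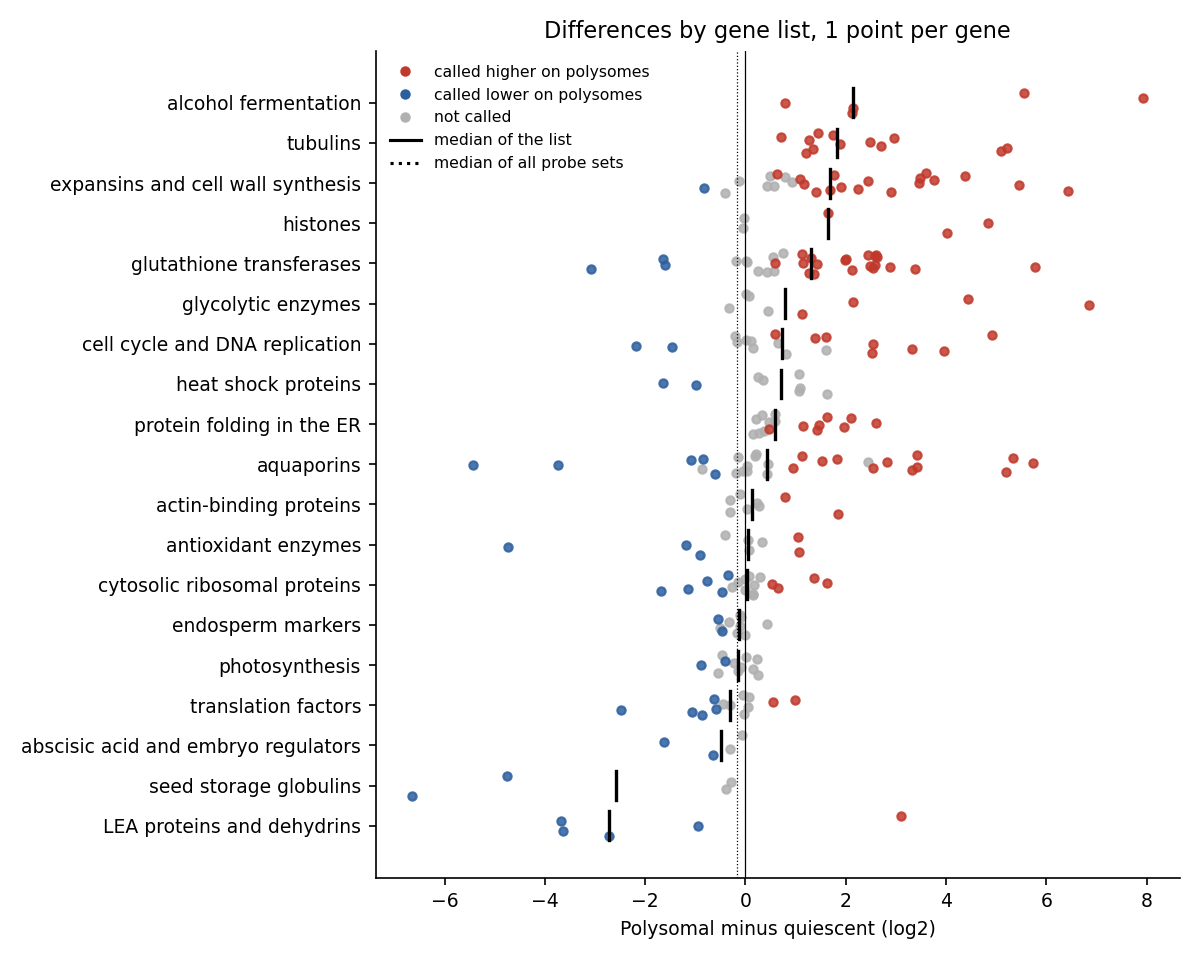
Difference between polysomal and quiescent log2 levels for the genes of each list with at least 4 measured genes, 1 point per gene, with the median of each list as a bar and the median of all probe sets (-0.18) as a dotted line. Tubulins (12 of 12) and alcohol fermentation genes (5 of 5) lie wholly among the called rises, LEA proteins and storage globulins mostly among the falls, and ribosomal proteins around 0.

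The mRNAs of the translation apparatus were at high levels in the stored pool, and most had similar levels on polysomes. Ribosomal protein mRNAs, which the series title names as its subject, gave no common direction. Of 18 cytosolic ribosomal protein genes, 4 were called higher and 5 lower, or 22.2% and 27.8%, against the 25.1% and 32.6% of all probe sets. Their median difference was 0.03, or -0.20 with median centring, and all 18 were retained. For 13 of them the 95% interval lay within 2-fold in either direction. With either quiescent sample left out, 3 were called lower.

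RPL10, the brightest of them on polysomes, had 13.62, 13.57 and 13.69 there, against 13.48 and 13.48 in quiescent axes, a difference of 0.15 ± 0.13 (adjusted p = 0.357). The samples did not overlap, but the difference was small. The 2 genes for RPS6, the ribosomal protein phosphorylated by S6 kinase, were close to their stored levels. rps6-1 had 12.61, 12.47 and 12.45 on polysomes and 12.38 and 12.32 in quiescent axes and was not called. rps6-2 had 12.67, 12.59 and 12.56 on polysomes and 13.06 and 13.09 in quiescent axes, a fall of 0.47 (adjusted p = 0.0156). Both were named after their values were seen.

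Larger differences were few. RPL19 fell by 1.68 ± 0.23 (adjusted p = 0.000225), with 11.58, 11.01 and 11.32 on polysomes against 13.05 and 12.91 in quiescent axes. RP-P0, of the ribosomal stalk, fell by 1.14. In the other direction rps21b had 11.42, 11.77 and 11.80 on polysomes and 9.97 and 10.12 in quiescent axes, a rise of 1.62 ± 0.23 (adjusted p = 0.000248), and rpp2a-2, also a stalk protein, rose by 1.37. Stalk protein genes were thus found on both sides.

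Translation factors held a larger share of falls and a smaller share of rises than all probe sets. Among probe sets with 1 gene, 23.3% were called lower and 32.4% higher. Of 13, 5 fell (38.5%, against 32.6% of all probe sets), 2 rose (15.4%, against 25.1%) and 6 were not called, with a median of -0.31. The falls numbered 6 with quantile normalization and 7 with median centring. EIF5, an initiation factor that acts in start codon selection, had 10.13, 9.31 and 10.35 on polysomes, against 12.35 and 12.47 in quiescent axes, a fall of 2.48 ± 0.38 (adjusted p = 0.000417). GOS2, an eIF1 homologue and the probe set of rank 2 in the stored pool, had 13.18, 13.10 and 13.00 on polysomes and 14.14 and 14.17 in quiescent axes. eIF3A fell by 0.86. The elongation factor gene elfa5 rose by 1.00 ± 0.17. Of the 2 rises, 1 was called without polysomal sample 2 or either quiescent sample. TOR, the growth-regulating kinase, had 7.25, 7.34 and 7.52 on polysomes against 8.21 and 8.92 in quiescent axes, a fall of 1.19 ± 0.22 (adjusted p = 0.00139). The call of S6K, the kinase of RPS6, was marginal at a fall of 0.39 (adjusted p = 0.0491), and it was lost whichever of the 5 samples was left out.

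**Figure D5:**
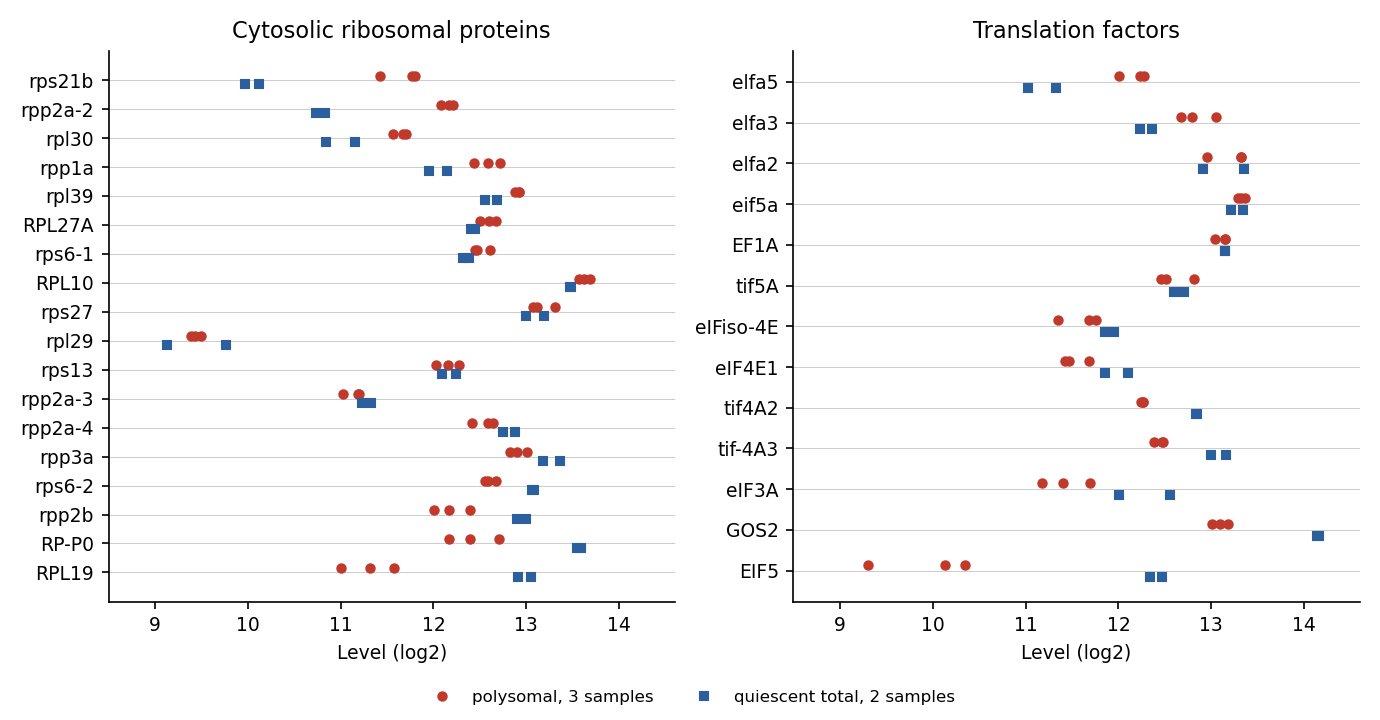
Log2 levels of cytosolic ribosomal protein genes (left, 18 genes) and translation factor genes (right, 13 genes), ordered by the difference, with circles for the 3 polysomal samples and squares for the 2 quiescent samples. Most pairs lie within 1 log2 unit, with RPL19 and EIF5 lowest on polysomes relative to their stored level.

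Bright stored mRNAs with a small difference were of mixed function. The 10 named genes with the highest stored level whose 95% interval lay within 2-fold were grp1, TCTP, RPL10, fdx3, gpc2, eif5a, rpp3a, GRP, EF1A and elfa2, all between 13.13 and 14.08 in quiescent axes. EF1A, a translation elongation factor, had 13.14, 13.04 and 13.14 on polysomes, against 13.15 and 13.14 in quiescent axes, and its difference was -0.04 with an interval from -0.32 to 0.25. TCTP, the translationally controlled tumour protein, had 13.47, 13.36 and 13.34 on polysomes and 13.60 and 13.50 in quiescent axes. rpp3a passed the test at a difference of only -0.36. Other probe sets of EF1A, TCTP, elfa2 and rpp3a gave other calls. The deposited values end at 14.38, so differences between very bright probe sets may be compressed, which was not tested.

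At the top of both pools the order was largely remade. Of the 100 brightest stored probe sets, 27 were among the 100 brightest on polysomes. Of those 100 stored probe sets, 69 were called lower, 1 higher and 30 not called, and their median polysomal rank was 265.5. Of the 100 brightest on polysomes, 60 were called higher, 3 lower and 37 not called. The same values ranked these probe sets and gave their calls, so both sets of counts are tilted by the selection. The shared part was 8 of 50 among the 50 brightest and 229 of 500 among the 500 brightest. Probe sets were also ranked on quiescent sample 2 and their difference measured against quiescent sample 1. In the 1756 brightest probe sets of this ranking the median difference was -0.69, with 303 of them at least 4-fold lower and 12 at least 4-fold higher. From the dimmest 1756 upward, the next groups of equal size had medians of -0.19, -0.25, -0.10, 0.11 and 0.41, with 72, 194, 279, 325 and 297 probe sets at least 4-fold higher. The median was thus highest at middle levels, and lowest among the brightest probe sets. Ranking on a separate sample removes only the noise that ranking and difference would share. Probe sets picked as brightest in quiescent axes still have more room to fall than to rise. How far the pattern follows from the ranking itself was not tested.

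Among named probe sets, mlg3 (stored rank 9), glb1 (13) and PER1 (45) had polysomal ranks of 1428, 9573 and 5957. eno1 ranked 23rd on polysomes and 1111th in the stored pool, pdc3 31st and 1176th, and gpc3 21st and 9767th. These genes were named after their ranks had been seen.

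Total RNA of 24 h axes holds the mRNA of the germinated stage without selection for polysomes. Both its contrast and the polysomal one use the same quiescent samples, so their values are only set side by side. The probe sets compared here were also chosen by their polysomal call, which can enlarge the polysomal medians. For the 5728 probe sets called lower on polysomes, the median difference from quiescent axes was -1.22 on polysomes and -0.95 in 24 h total RNA. For the 4409 called higher it was 1.61 on polysomes and 1.34 in 24 h total RNA. Among the named genes, glb1 had 9.27 and 9.10 in 24 h total RNA, rab17 10.42 and 12.50, Hb 13.33 and 11.31, and pdc1 13.20 and 12.87, each in M4 and RB. None of the 30 named rises and falls was called between polysomal and 24 h total RNA.

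Directly compared with 24 h total RNA, 54 probe sets were called higher on polysomes (0.308%) and 136 lower (0.775%). At an unadjusted p under 0.05 in the same limma fit, 1568 were higher and 1875 lower. The low number of calls therefore does not show that polysomal and 24 h total RNA were alike. The counts of calls depended on single samples. Without M4 they were 1033 higher and 1270 lower and without RB 18 and 43, each time with a lone 24 h sample assumed to vary like the other groups. A fit of the polysomal and 24 h samples alone called 0 and 8 (1143 and 1528 at an unadjusted p under 0.05 in limma). The fit over all groups also takes its spread from the insulin-treated samples, which it treats as independent although their deviations followed those of polysomal samples 1, 2 and 3 (correlations 0.77, 0.70 and 0.60 for the best-matched pairs). Without polysomal sample 1 they were 4 and 13, without sample 2 they were 4 and 25, and without sample 3 they were 0 and 6 in limma, where 1101 and 1477 had an unadjusted p under 0.05. Among lost probe sets 5 were lower on polysomes than in 24 h total RNA, and among gained probe sets 2 were higher and 1 lower.

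Of the named genes, 10 were called in the fit over all groups, and all are given. None of the 10 was called in the fit of the polysomal and 24 h samples alone or without polysomal sample 1 or 3, and 2 were called without polysomal sample 2 (DIP1 and dbf1) and without RB (DIP1 and HP3). AGA1, an alkaline alpha-galactosidase, had 9.77, 9.66 and 9.27 on polysomes, against 11.38 and 11.13 in M4 and RB. Quiescent axes had 12.03 and 11.54. It was lower on polysomes than in 24 h total RNA by 1.69 ± 0.24 (adjusted p = 0.021), while its total RNA at 24 h did not differ from the quiescent level by the test (adjusted p = 0.127). hsp70-5 gave the same pattern on all 3 of its probe sets. Its brightest had the polysomal and quiescent levels given above, and 13.24 and 13.20 in 24 h total RNA (adjusted p = 0.018 between polysomal and 24 h RNA, 0.565 between 24 h and quiescent RNA). For both genes the polysomal level was below that of total RNA at either stage.

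dbf1, a regulator that binds drought-responsive promoter elements, and DIP1, its interacting protein, were likewise lower on polysomes. dbf1 had 7.96, 7.53 and 7.89 on polysomes, against 9.11 and 9.52 in 24 h total RNA (adjusted p = 0.018), and DIP1 9.57, 9.71 and 9.32 against 10.81 and 10.98 (adjusted p = 0.015). cks, GRF12 and sh2 were lower by 1.28, 1.08 and 0.83. HP3, a phosphotransfer protein of cytokinin signalling, was higher on polysomes, with 7.56, 7.79 and 7.45 against 5.95 and 6.26 in 24 h total RNA (adjusted p = 0.018). gst9 and lem1, a plastid ribosomal protein, were higher by 1.33 and 0.95.

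Among regulators of the maturing embryo, of 4 genes 2 fell and none rose (50% lower and 0% higher, against 32.6% and 25.1% of all probe sets). mEmBP-1a, a bZIP factor that binds abscisic acid response elements, had 5.91, 5.91 and 5.88 on polysomes and 7.28 and 7.79 in quiescent axes (difference -1.63 ± 0.19, adjusted p = 7.69e-05). vp1, a regulator of seed maturation, fell by 0.65 on its brightest probe set, and its 4 probe sets did not share 1 call. With polysomal sample 1, 2 or 3 or quiescent sample 2 left out, 1 of the 4 was called.

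The labelled tissue was checked against markers of the endosperm, the storage tissue beside the embryo. Of 10 marker genes, mostly zein storage proteins, 8 were at background in all 5 samples, o2 lay near background, and gz27 was above it at 8.20, 8.17 and 8.31 on polysomes and 7.76 and 7.83 in quiescent axes. The linear levels of the 10 summed to 402 to 437 on polysomes and 363 to 374 in quiescent axes, and without gz27 to 114 to 121 on polysomes and 135 to 157 in quiescent axes. Not among the 10 were sh2, EBE-1, EBE-2 and meg2, which were above background in quiescent axes and lost from polysomes. The check thus covers only the 10 listed genes. Whether the quiescent samples held RNA of other seed tissues was not tested. gz27 was not called, and 2 of the markers at background were called lower, by 0.46 and 0.54 (20%, against 32.6% of all probe sets). The count of markers called lower ran between 0 and 5 over the alternatives. Photosynthesis genes were low. Of 11, 2 fell (18.2%, against 32.6% of all probe sets) and 9 were not called. The brightest, lhcb6, a light-harvesting protein gene, stood at 7.90, 8.16 and 7.88 on polysomes and 7.95 and 7.57 in quiescent axes. With median centring 5 of the 11 were called lower, and with quantile normalization 2 were called higher. Of the enzymes that mobilise stored lipid, mas1, a malate synthase, fell by 1.14 but was not called without quiescent sample 1, and isocitrate lyase (ICL) was not called.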

How the data were processed

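The authors deposited 1 table of log2 intensities, 17734 probe sets by 14 Affymetrix arrays, between 2.60 and 14.38. The log2 scale was taken from that range; for background correction, normalization and probe summary, methods were not given in the sources read. Per the submitters' processing notes limma was used. Technical arrays were averaged within a sample. After 179 control and reporter probe sets had been left out, all 5 groups were fitted with limma 3.58.1 (lmFit, eBayes) in R 4.3.3, with 6 residual and 3.21 prior degrees of freedom. The fit was tested on simulated data in which all samples were independent. That test does not cover the shared deviations of polysomal and insulin-treated samples. Calls used a Benjamini-Hochberg adjusted p under 0.05, and intervals are 95%. Where a group lay at background, folds are lower bounds against each sample's background or own value, whichever was higher. The number of arrays limits the precision.

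Names come from a platform annotation updated through Entrez IDs with the RefSeq table of Zm-B73-REFERENCE-NAM-5.0, where 1060 of 1108 genes were found. Each gene in a list is given by its probe set with the highest mean, while the shares of all probe sets count every probe set. How far this choice moves the shares of the lists was not tested. Named genes are the 15 largest rises and falls among called probe sets without overlap, 10 steady, lost or gained genes of highest level, and up to 4 per list with the largest called differences. Others were named after their values were seen. Members and lists were chosen with earlier results of these data known. Same-numbered polysomal and quiescent samples did not deviate together (correlations 0.02 and 0.02), so numbers were not taken as pairs. Alternatives covered scaling, filters, background, technical arrays, the prior and left-out samples.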

Additional observations from a re-analysis of the deposited data

Results flagged for a closer look

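Signals outside the tested probe sets stood above the negative controls. Among 66 reporter features, 6 exceeded the highest negative control of the sample in each of the 5 samples, with reporter levels from 4.87 to 14.14 overall. The poly-A spike-in controls had sample medians from 8.45 to 10.84, and the hybridisation controls from 9.59 to 10.69, against a highest negative control of 5.05. These controls entered no comparison, and the spike-in levels differed between polysomal samples.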

How the results depend on the processing

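The 15 named rises and 15 named falls kept their direction and call in all 389 values that 13 alternative fits gave for them, and no called difference of a named or listed gene changed sign. Among the 3731 values of named and listed genes under alternatives, 3500 kept their call, 141 lost it and 90 gained it. Requiring a 2-fold difference left 3487 lower and 3367 higher calls. Gained probe sets numbered 371 with the highest negative control as background and 785 with background 1 unit higher. Leaving out 1 sample gave 3740 to 4243 higher calls, 4745 to 5165 lower calls, 316 to 433 lost, 211 to 306 gained, 13381 to 13565 retained, and 2997 to 3666 retained within 2-fold. With the replicate number as a replicate block and the 24 h samples left out, 4447 were higher and 5527 lower, and 315 lost and 219 gained. All are close to the values without it. The block joins same-numbered samples, yet polysomal samples 1 and 2 deviated against the insulin-treated samples of their number (correlations -0.63 and -0.44). Against 24 h total RNA, a fit of the 2 groups alone called 0 higher and 8 lower in limma (1143 and 1528 at an unadjusted p under 0.05), and leaving out 1 sample gave 0 to 1033 higher and 6 to 1270 lower. The brightest stored probe sets shared 16% with the brightest on polysomes at 50 and 45.8% at 500. The causes were not tested. The 2 quiescent samples, the unstated normalization and the coverage of gene names limit what can be compared.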

Other observations

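On the array of insulin-treated polysomal sample 2, whose probe sets stand beside the classes above, the hybridisation controls had a median of 3.97, under its background of 4.56, while its poly-A spike-in controls had a median of 10.79. In the other 10 samples the hybridisation controls had medians of 8.98 or more.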
